A study of Mus musculus with 6 samples.

Results

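The 43 genes described here encode the machinery that copies DNA in S phase, from origin licensing and the replicative helicase to the polymerases, the sliding clamp and the enzymes that supply deoxynucleotides. They are textbook replication factors, chosen with earlier results of these data known. Only gene symbols present among the 14549 genes of the deposited expression table were taken, so all 43 are in it. The libraries hold polyadenylated RNA from the epicardium and subepicardium, the outer layer of the heart and the tissue just under it, dissected from mouse embryos at E16.5, late in gestation. There were 3 control libraries, labelled wild-type (numbers 1, 2 and 4), and 3 double knockout libraries, called dKO (numbers 1, 2 and 3), from Meis1fl/fl;Meis2fl/fl;WT1-Cre embryos. Meis1 and Meis2 are homeodomain transcription factors of the TALE class, and the WT1-Cre transgene deletes their floxed alleles in cells that express, or descend from cells that expressed, the epicardial factor WT1. Cells without that history keep both genes, and whether the control embryos carried floxed alleles or the Cre is not stated in the sources used here. Every library came from 2 pooled hearts of the same genotype, so the spread between libraries is a spread between pools, and the spread between single hearts was not measured. All values are normalised read counts, in reads per 1e+06 of a scaled library size, and every log2 change is dKO minus control on the log2(value + 1) scale.

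Replication of a genome is prepared in G1, when the origin recognition complex, CDC6 and CDT1 load the ring-shaped MCM2-7 helicase onto DNA. In S phase, kinases and the factors MCM10, CDC45 and GINS turn the loaded rings into active helicases, and the polymerases, held on DNA by the clamp PCNA, copy the unwound strands. Many of these genes are transcribed under the E2F factors as cells enter S phase, so their RNA is commonly read as a sign of cycling cells. The epicardium of the fetal heart is a dividing layer, and the heart muscle beneath it still divides at this age.

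Several facts of the libraries touch the replication values. Recovered read totals, over the genes of the table, ran from 13146322 (dKO 2) to 20635676 (dKO 3), and mitochondrially encoded genes held 5.99% to 10.4% of the signal in controls and 11.3% to 19.9% in dKO. Meis2 was 86.1, 85.6 and 63.3 in controls against 44.5, 34.8 and 44.5 in dKO, a log2 change of -0.90 (SE 0.16; adjusted p = 0.00352 in limma, a linear model fitted across all genes; an exact permutation test gave p = 0.1, its floor for 3 against 3). Meis1 was 106, 63.6 and 63.4 in controls against 58.5, 74.1 and 65.0 in dKO, a log2 change of -0.20 (limma adjusted p = 0.521; exact permutation p = 0.7). Its change was 0.05 without control 1, the library in which it was highest. These values cover all exons and so do not measure the deleted part of either gene. Markers of several cell types moved with genotype. The counts that follow are of markers past an adjusted p of 0.05 in limma. Of all genes 9.81% passed as higher in dKO and 12.2% as lower. All 10 epicardial and mesothelial markers were lower in dKO (summed value 1926 to 2711 in controls and 325 to 397 in dKO), as were all 8 fibroblast markers (26964 to 30544 and 9664 to 12703). Of the 14 cardiomyocyte markers 13 were higher (4565 to 10182 and 23769 to 27426), as were 6 of 7 mural markers (640 to 973 and 1915 to 2124). Of the others, 1 of 7 endothelial markers (951 to 1417 and 1131 to 1266) and 3 of 6 macrophage markers (208 to 297 and 110 to 151) were lower, and 0 of 7 erythroid markers passed (1112 to 2266 and 1389 to 2028). By sign alone, all 14 cardiomyocyte changes were above 0 and all 6 macrophage changes below 0. Endothelial changes were above 0 for 4 and below for 3, erythroid for 6 and 1, and mural for 6 and 1. None of the 71 markers had 0 reads in a library. Control 1 stood apart from the other controls, with a mean log2 value of the cardiomyocyte list of 7.48 against 8.45 and 8.60 (9.78 to 10.06 in dKO).

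Over the 14549 genes, 3205 passed an adjusted p of 0.05 in limma (22.0%), 1427 higher in dKO (9.81%) and 1778 lower (12.2%). Of the 43, the 3 genes Mcm7, Rrm2 and Tk1 rose, Orc6 and Tyms fell, and 38 did not pass, a called share of 11.6%; edgeR, on reads recovered from the values, called 20.3% of all genes and 3 replication genes higher and 1 lower (Tyms). The median log2 change of the 43 was 0.15, beside 0.0016 for all genes, with 32 changes above 0 and 11 below. The lowest change was -0.51 (Orc6) and the highest 0.75 (Rrm2), and 36 of the 43 lay within 0.5 of 0, beside 9698 of all 14549 genes. The median size of a change, whatever its sign, was 0.18 for the replication genes and 0.32 for all genes. No replication gene (0 of 43) reached a log2 change of 1 in either direction, which 12.2% of all genes did. In bulk tissue, fewer cells of a type and less RNA per cell cannot be told apart, here and in every value below. The part of these marker shifts in the replication values was not tested beyond a fit with the mean log2 value of the cardiomyocyte markers as a covariate. In that fit 0 of the 43 genes passed, with a median change of -0.03, and 229 of all genes passed. The value itself separates the genotypes, so the covariate and genotype cannot be told apart.

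**Figure D1:**
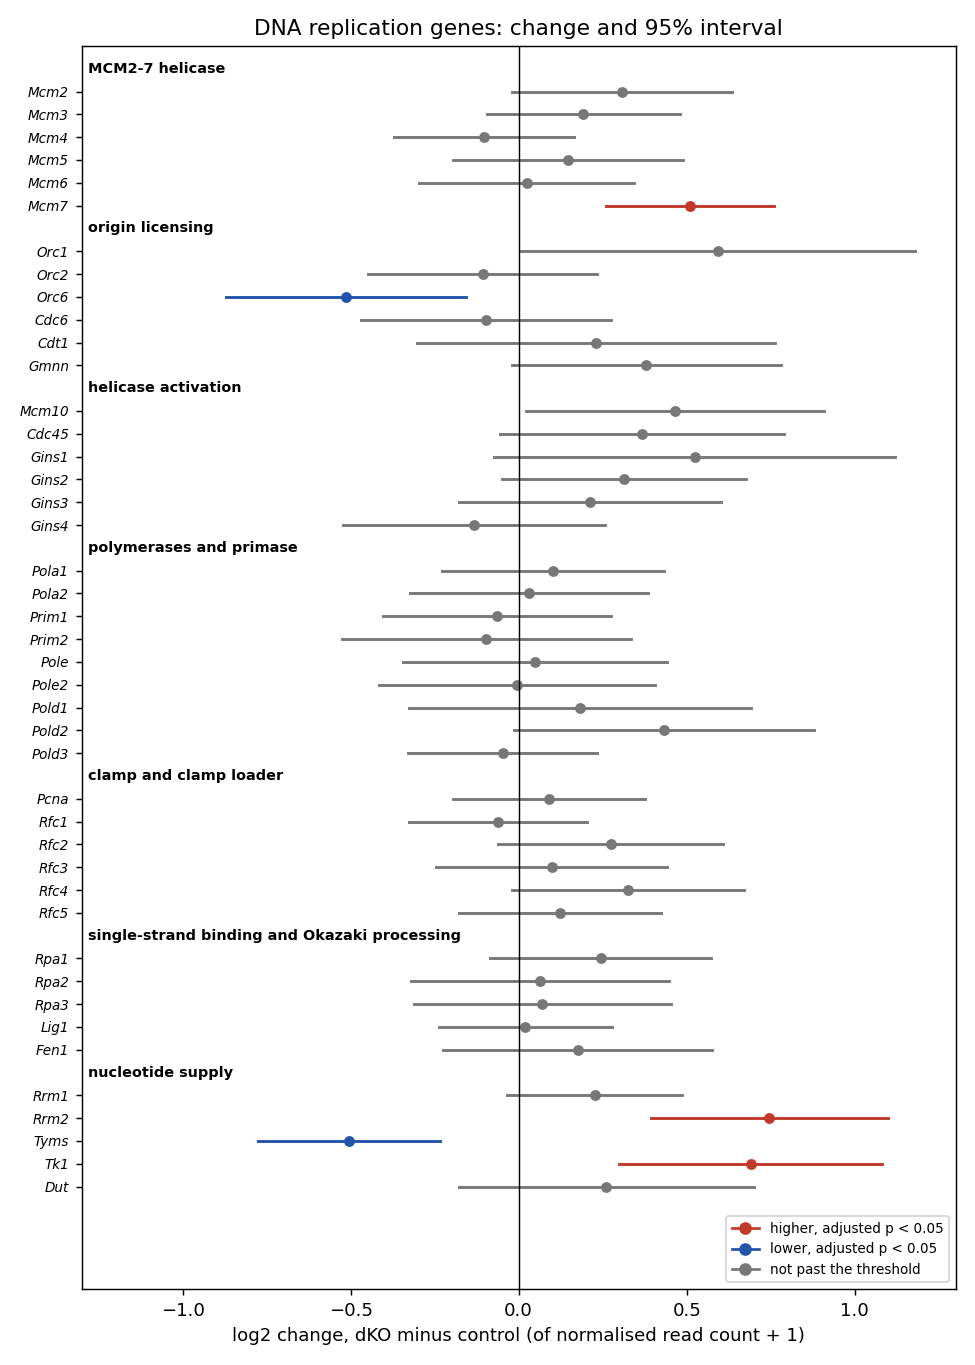
Log2 change (dKO minus control, of the normalised read count plus 1) of the 43 DNA replication genes, grouped by role; points are the limma estimates over 3 control and 3 dKO libraries and bars their 95% intervals. The 3 genes that rose (Mcm7, Rrm2, Tk1) are red, the 2 that fell (Orc6, Tyms) are blue, and most of the other intervals cross 0.

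Precision was not the same for every gene. The median standard error (SE) of a replication gene was 0.16 on the log2 scale (0.21 for all genes), and at that SE a change of 0.49 was needed to pass. The 95% interval lay within -1 and 1 for 39 of the 43, and reached above 1 for Orc1 (1.18), Gins1 (1.12), Rrm2 (1.10) and Tk1 (1.08). All 43 genes passed the filter on low values, which kept every gene of the table. The lowest single value was 3.41 (53 reads, Orc1 in control 2) and the highest 271 (Rrm1 in dKO 3), and 33 of the 43 lay above the median gene of the table.

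In 13 of the 43 genes the control and dKO values did not overlap (30.2%), against 40.4% of all genes. The values were higher in all dKO libraries for 11 of these and lower for 2, beside 19.3% and 21.1% of all genes. Besides the 5 called genes, those without overlap were Orc1, Mcm10, Gins2, Gins3, Pold2, Rfc2, Rfc4 and Rrm1. All 8 were higher in dKO and none was past the adjusted threshold. With an unadjusted p under 0.05 in limma there were 7 of the 43 genes, beside 5107 of all 14549 genes. The 7 were the 5 that were called and also Orc1 and Mcm10.

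The MCM2-7 helicase is a ring of 6 related subunits that unwinds DNA ahead of the fork. In these libraries 1 of the 6 genes rose, Mcm7, and the other 5 did not pass, with a group median of 0.17. Mcm7 (ENSMUSG00000029730, GRCm38 chromosome 5, 138164583 to 138172422, minus strand) was 70.1, 75.4 and 78.7 in controls 1, 2 and 4 and 104, 107 and 109 in dKO 1, 2 and 3. The 2 groups were well apart, at 74.7 ± 4.33 and 107 ± 2.58 (SD, n = 3 each). The log2 change was 0.51 (SE 0.11, 95% interval 0.26 to 0.76, limma adjusted p = 0.00952), and it passed in each of the 6 fits that left out 1 library (adjusted p 0.0196 to 0.0478). Mcm7 shares sequence with other genes: 12.6% of its exonic bases lie in Ap4m1, Cops6, Mir25 or Mir93. Reads in these bases cannot be assigned to Mcm7 with certainty. Of the 50-base words of Mcm7, 23.3% also occur in other transcripts, the largest part in the pseudogene Gm5487.

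The other subunits of the ring did not pass beside Mcm7. Mcm6, the most abundant of the 6 in the table, was 155, 164 and 129 in controls against 159, 129 and 168 in dKO. Its groups overlapped, with a log2 change of 0.02 (95% interval -0.30 to 0.34, limma adjusted p = 0.925). Mcm2, often used as a marker of cells licensed to divide, was 50.2, 66.4 and 52.5 in controls against 76.1, 61.9 and 71.2 in dKO. Here dKO 2 lay below control 2, and the log2 change of 0.31 (SE 0.15) did not pass (limma adjusted p = 0.167). Mcm3 changed by 0.19 (limma adjusted p = 0.322), Mcm5 by 0.15 (0.545) and Mcm4 by -0.10 (0.587), each with overlapping groups. The 6 subunits enter the ring in equal number, so their RNA was set side by side per kilobase of exon. This length joins the exons of all protein-coding transcripts of a gene in the basic set of GENCODE M21. The order can therefore depend on which transcripts are annotated. In controls Mcm6 (34.1 per kb), Mcm4 (30.2) and Mcm3 (29.9) stood above Mcm7 (25.2), Mcm2 (16.7) and Mcm5 (14.1). In dKO Mcm7 (36.0 per kb) was level with Mcm6 (34.7) and Mcm3 (34.0). The value of Mcm7 over the mean of the other 5 was 0.793, 0.777 and 0.910 in controls against 1.06, 1.22 and 1.07 in dKO, a ratio chosen after the values were seen and given with no test.

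The MCM promoters show the sequence feature for which replication genes are known, the E2F site. In RefSeq promoter windows of 300 bases (250 before to 50 after the start, GRCm38.p6), 4 of the 5 MCM2-7 genes with a window held at least 1 E2F word. The following stretches lie before the RefSeq start of Mcm5 (chr8:75109259-75109508, plus strand) and Mcm6 (chr1:128359706-128359955, minus strand). They hold several such words, and neither gene passed. Mcm7, which rose, and Mcm3, which did not pass, also held 2 E2F words each in a window and are not printed. Capitals mark E2F words (TTTCCCGC, TTTGGCGC, TTTCGCGC or TTTGCCGC) and CCAAT boxes, on either strand.
Mcm5: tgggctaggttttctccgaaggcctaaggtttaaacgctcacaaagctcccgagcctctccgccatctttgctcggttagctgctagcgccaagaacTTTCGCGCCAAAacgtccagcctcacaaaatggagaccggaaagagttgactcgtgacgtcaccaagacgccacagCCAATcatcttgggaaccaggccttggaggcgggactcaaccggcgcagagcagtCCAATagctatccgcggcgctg
Mcm6: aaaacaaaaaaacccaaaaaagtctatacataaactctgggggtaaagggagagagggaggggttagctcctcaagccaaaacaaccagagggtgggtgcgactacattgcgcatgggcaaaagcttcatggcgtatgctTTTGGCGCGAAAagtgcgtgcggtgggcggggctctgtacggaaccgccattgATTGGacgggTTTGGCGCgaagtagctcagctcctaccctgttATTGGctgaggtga
In Mcm5 the 2 E2F words overlap on opposite strands in 1 run of capitals, with 2 CCAAT boxes nearer the start. In Mcm6 there are 3 E2F words, of which 2 overlap, and 2 CCAAT boxes read on the other strand (ATTGG).

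Origin licensing members choose and prepare the start sites. Of the 6, Orc6 fell and 5 did not pass, with a median of 0.07. Orc6, a loosely bound subunit of the origin recognition complex (ENSMUSG00000031697, GRCm38 chromosome 8, 85299632 to 85308278, plus strand), was 53.3, 63.3 and 48.6 in controls against 42.2, 31.7 and 41.2 in dKO. All dKO values lay below all control values, at 38.4 ± 5.80 against 55.1 ± 7.49 (SD, n = 3 each). The log2 change was -0.51 (SE 0.16, 95% interval -0.87 to -0.16, limma adjusted p = 0.0447). This call was close to the threshold: the adjusted p was 0.0535 in edgeR, and 0.0630 without control 1, 0.139 without control 2, 0.162 without dKO 2 and 0.0805 without dKO 3. Of its exonic bases 6.93% lie in the neighbouring gene Vps35.

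The other origin recognition genes of the list, Orc1 and Orc2, did not pass. Orc1, the ATPase subunit that is made and destroyed with the cell cycle, was the lowest of the 43, at 5.84, 3.41 and 4.79 in controls against 8.86, 6.10 and 7.58 in dKO. Every dKO value exceeded every control value, yet the wide interval (log2 change 0.59, 0.01 to 1.18) left an adjusted p of 0.137 in limma. Of the exonic bases of Orc1 10.8% lie in Gm12743. Orc2 had overlapping groups (log2 change -0.11, limma adjusted p = 0.668), and 29.8% of its exonic bases lie in Nif3l1. The loaders Cdc6 (log2 change -0.10, limma adjusted p = 0.726) and Cdt1 (0.23, 0.540) did not pass either. Gmnn encodes geminin, which binds CDT1 and blocks a repeat loading in the same cycle. It was 33.3, 53.5 and 41.5 in controls against 61.6, 48.9 and 54.9 in dKO. Control 2 lay within the dKO range, and the log2 change was 0.38 (SE 0.18, limma adjusted p = 0.163). The Gmnn value over that of its target Cdt1 was 2.85, 2.56 and 2.96 in controls against 2.90, 3.37 and 2.97 in dKO, ranges that overlapped.

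Helicase activation had the highest median of the 7 role groups with all 6 libraries, 0.34, but 0 of its 6 members passed in limma or in edgeR, and 1 had an unadjusted p under 0.05. That gene was Mcm10, which helps the activated helicase start to unwind. It was 15.5, 13.3 and 21.9 in controls against 23.7, 23.3 and 22.8 in dKO. The dKO libraries were close together (23.2 ± 0.440, SD, n = 3) and just above control 4, and the controls were scattered (16.9 ± 4.44, SD, n = 3). The log2 change was 0.46 (SE 0.20, 95% interval 0.02 to 0.91, limma adjusted p = 0.126), and it passed only in the fit without control 4 (adjusted p = 0.0421) among the 6 that left out 1 library. Cdc45, the helicase cofactor, was 19.4, 21.03 and 24.5 in controls against 22.8, 27.6 and 35.1 in dKO (log2 change 0.37, limma adjusted p = 0.199).

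GINS is a complex of 4 small subunits that bridges the helicase and polymerase epsilon. Gins1 was 8.24, 19.1 and 14.8 in controls against 19.3, 18.2 and 21.2 in dKO (log2 change 0.52, limma adjusted p = 0.195), with control 1 far below the rest. Gins2 (0.31, limma adjusted p = 0.202) and Gins3 (0.21, 0.431) had groups that did not overlap, higher in dKO, although 67.3% of the exonic bases of Gins2 lie in Gse1. Gins4, the most abundant of the 6, was 30.9, 46.9 and 39.3 in controls against 39.5, 34.1 and 31.9 in dKO. Its groups overlapped, with a log2 change of -0.13 (95% interval -0.52 to 0.26, limma adjusted p = 0.640).

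The polymerases and primase were nearly level between the groups: 0 of 9 members passed in limma or edgeR, 0 had an unadjusted p under 0.05, and the median was 0.03. DNA polymerase alpha with primase lays the RNA-DNA primers, polymerase epsilon extends the leading strand and polymerase delta the lagging strand. Pold2, an accessory subunit of polymerase delta, had the smallest p of the 9, at 12.8, 13.2 and 13.0 in controls against 21.6, 14.0 and 18.8 in dKO. The controls were tight (13.0 ± 0.219, SD, n = 3) and the dKO libraries were not (18.2 ± 3.84, SD, n = 3), so the log2 change of 0.43 (SE 0.20) had an adjusted p of 0.155 in limma. Pold3, another delta subunit and the most abundant of the 9, was 48.6, 55.3 and 49.0 in controls against 51.3, 46.1 and 50.4 in dKO. Its log2 change was -0.05 with a 95% interval of -0.33 to 0.23 (limma adjusted p = 0.824), so a change of 1 lies outside the interval. The catalytic subunits Pola1 (log2 change 0.10, limma adjusted p = 0.673), Pole (0.05, 0.871) and Pold1 (0.18, 0.617) did not pass. Neither did Pola2 (0.03, 0.914), Pole2 (-0.01, 0.989), Prim1 (-0.06, 0.802) or Prim2 (-0.10, 0.766). Pole was lowest in dKO 1, at 30.7, against 37.1 to 40.6 in controls and 46.3 and 46.8 in the other dKO libraries.

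The clamp and its loader gave 0 called genes of 6 in limma and in edgeR, 0 with an unadjusted p under 0.05, and a median of 0.11. Pcna, the ring that tethers the polymerases and a standard marker of S phase, was 111, 124 and 97.4 in controls against 126, 108 and 118 in dKO. The groups overlapped in part (111 ± 13.2 and 118 ± 8.79, SD, n = 3 each), and the log2 change was 0.09 (SE 0.13, 95% interval -0.19 to 0.38, limma adjusted p = 0.662). Of the 50-base words of Pcna, 19.1% also occur in other transcripts, the largest part in the pseudogene Pcna-ps2, which itself carried 107 in controls and 100.2 in dKO (means), so part of the reads of this pair may be split between them. Per kilobase of joined exons Pcna was the most abundant of the 43 in controls, at 72.9, and stood below Rrm2 (83.5) in dKO, at 77.4. The clamp loader RFC opens the ring. Rfc4 had the smallest p in the group, at 25.2, 31.3 and 34.8 in controls against 39.4, 36.8 and 38.0 in dKO, with no overlap. Its log2 change was 0.33 (SE 0.15, limma adjusted p = 0.165), and 12.7% of its exonic bases lie in Eif4a2. Rfc2 also had groups apart (0.27, limma adjusted p = 0.227), and 15.1% of its exonic bases lie in Lat2. Rfc1 (-0.06, limma adjusted p = 0.754), the large subunit, Rfc3 (0.10, 0.698) and Rfc5 (0.12, 0.563) had overlapping groups.

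Among the proteins that coat single strands and finish the lagging strand, 0 of 5 passed in limma or edgeR, 0 had an unadjusted p under 0.05, and the median was 0.07. Rpa1, the large subunit of the single-strand binding trimer, was 79.8, 96.7 and 116 in controls against 113, 108 and 123 in dKO. Control 4 reached into the dKO range, and the log2 change was 0.24 (SE 0.15, limma adjusted p = 0.273). Rpa2 (0.06, limma adjusted p = 0.825) and Rpa3 (0.07, 0.805), its smaller partners, had overlapping groups. Lig1, the ligase that seals Okazaki fragments, was 61.9, 64.9 and 66.6 in controls against 68.3, 65.5 and 62.4 in dKO (log2 change 0.02, 95% interval -0.24 to 0.28, limma adjusted p = 0.923). Fen1, the flap nuclease, did not pass (0.18, limma adjusted p = 0.534), and 84.2% of its exonic bases lie in Gm10143 or Tmem258, so its value is uncertain.

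Nucleotide supply held 3 of the 5 called genes, in both directions: Rrm2 and Tk1 rose, Tyms fell, and Rrm1 and Dut did not pass, with a median of 0.26. Rrm2 encodes the small, cell cycle-regulated subunit of ribonucleotide reductase, which makes deoxynucleotides from ribonucleotides (ENSMUSG00000020649, GRCm38 chromosome 12, 24708241 to 24714146, plus strand). It was 85.5, 128 and 116 in controls against 177, 169.9 and 203 in dKO, with control 1 the lowest and no overlap. Means were at 109.97 ± 22.1 and 183 ± 17.2 (SD, n = 3 each), a log2 change of 0.75 (SE 0.16, 95% interval 0.39 to 1.10, limma adjusted p = 0.00813). Rrm2 passed in each of the 6 fits that left out 1 library (adjusted p 0.00802 to 0.0401). Its partner Rrm1, the large subunit, had the highest value of the 43, at 223, 204 and 203 in controls against 237, 231 and 271 in dKO. The groups did not overlap, but the log2 change of 0.23 (SE 0.12, 95% interval -0.03 to 0.49) did not pass (limma adjusted p = 0.200). The value of Rrm2 over that of Rrm1 was 0.384, 0.629 and 0.571 in controls against 0.746, 0.735 and 0.749 in dKO.

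Thymidine nucleotides are made by 2 routes, and their enzymes moved in opposite directions. Tk1, the thymidine kinase that salvages thymidine (ENSMUSG00000025574, GRCm38 chromosome 11, 117815526 to 117826092, minus strand), was 12.8, 15.3 and 17.2 in controls against 25.3, 26.2 and 22.9 in dKO. All dKO values were higher, at 24.8 ± 1.74 against 15.1 ± 2.22 (SD, n = 3 each), a log2 change of 0.69 (SE 0.18, 95% interval 0.30 to 1.08, limma adjusted p = 0.0187). Its adjusted p was 0.0739 without dKO 2. Tyms, thymidylate synthase of the de novo route (ENSMUSG00000025747, GRCm38 chromosome 5, 30058202 to 30073617, minus strand), was 56.3, 61.4 and 63.1 in controls against 41.7, 43.5 and 41.3 in dKO. Every dKO library was lower and the 3 were close together, at 42.2 ± 1.19 against 60.3 ± 3.53 (SD, n = 3 each). The log2 change was -0.50 (SE 0.12, 95% interval -0.78 to -0.23, limma adjusted p = 0.0150), and the adjusted p was 0.0506 without control 4 and 0.0637 without dKO 3. Within a library, Tk1 over Tyms was 0.226, 0.249 and 0.272 in controls against 0.607, 0.602 and 0.554 in dKO, and Rrm2 over Tyms was 1.52, 2.09 and 1.84 in controls against 4.23, 3.90 and 4.91 in dKO. These ratios, like that of Rrm2 to Rrm1, were chosen after the values were seen and are given with no test. Dut, which clears dUTP, was 49.2, 70.1 and 38.2 in controls against 64.3, 57.3 and 62.3 in dKO (log2 change 0.26, limma adjusted p = 0.384), with the control libraries scattered on both sides.

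**Figure D2:**
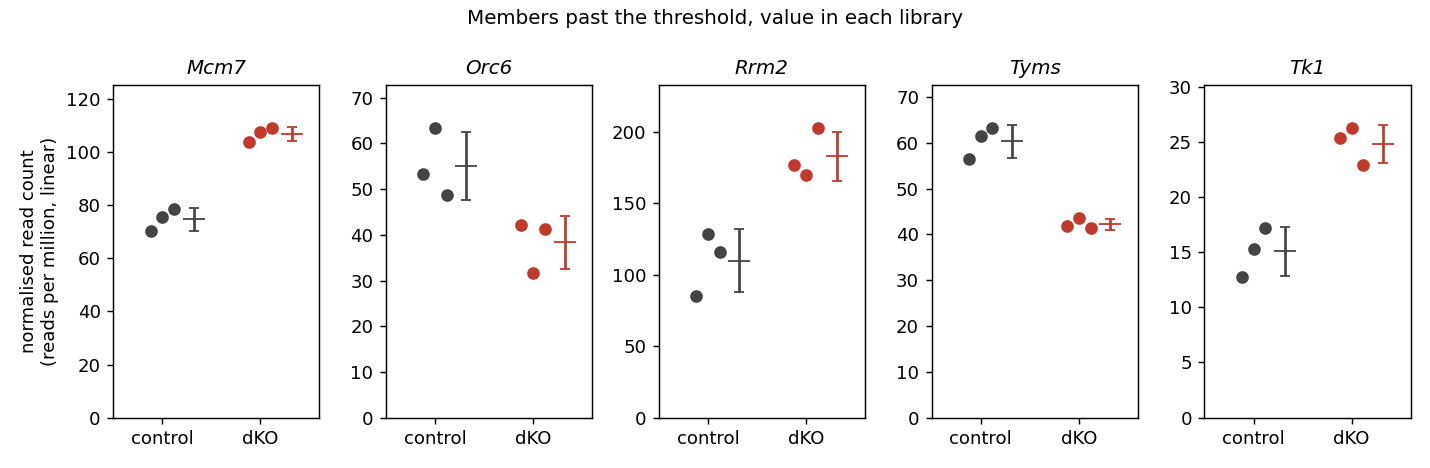
Normalised read count (linear axis from 0) of the 5 replication genes that passed the threshold, one point per library, with the mean and SD of each group beside the points (3 control and 3 dKO libraries). The groups do not overlap in any of the 5 panels; Mcm7, Rrm2 and Tk1 are higher and Orc6 and Tyms lower in dKO.

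No nucleotide supply promoter (0 of 5) held 1 of the 4 E2F words, although the Tyms window matched the looser letters TTTNNCGC once, and the stretches before the RefSeq start of Rrm2 (chr12:24708004-24708240, plus strand, ending 14 bases before the start) and Tyms (chr5:30073626-30073875, minus strand) are shown as the pair that moved in opposite directions. Capitals again mark E2F words and CCAAT boxes on either strand.
Rrm2: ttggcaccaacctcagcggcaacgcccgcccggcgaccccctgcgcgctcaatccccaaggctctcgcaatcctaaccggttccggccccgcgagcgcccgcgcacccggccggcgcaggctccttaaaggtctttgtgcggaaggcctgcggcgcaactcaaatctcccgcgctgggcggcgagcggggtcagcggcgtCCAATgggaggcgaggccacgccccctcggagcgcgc
Tyms: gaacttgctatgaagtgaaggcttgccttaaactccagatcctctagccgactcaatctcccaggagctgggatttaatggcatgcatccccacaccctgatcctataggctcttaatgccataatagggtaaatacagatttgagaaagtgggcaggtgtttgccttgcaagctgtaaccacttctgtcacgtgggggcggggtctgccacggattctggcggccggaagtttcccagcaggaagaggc
Rrm2 has 1 CCAAT box and 2 SP1 words (GGGCGG) in this stretch, and Tyms has 0 CCAAT boxes and 1 SP1 word, left in lower case. The absence of a word says only that these letters are not in this window.

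Across the list, 35 of the 43 genes had a RefSeq window, 41 windows in all; Gins1, Gins2, Gins4, Gmnn, Mcm4, Pole, Prim2 and Rfc2 had none. An E2F word, searched on both strands with overlaps counted, was in 14 of the 41 windows (34.1%), against 2.26% of all 32851 RefSeq windows and 3.78% of the 13535 windows of genes in the table. With the looser letters TTTNNCGC the shares were 36.6% and 5.17%, and 7.99% of the windows of genes in the table. The 1 added window of a replication gene was that of Tyms. CCAAT was in 58.5% of the windows of replication genes, 37.4% of all and 37.7% of those of genes in the table. The SP1 word GGGCGG was in 68.3% and 35.7%, and in 61.1% of the windows of genes in the table. The CHR words TTTGAA and TTCGAA, an element of genes transcribed late in the cell cycle, were in 17.1% and 19.2%, and in 13.9% of the windows of genes in the table. Mcm3, Mcm5, Mcm6, Mcm7, Orc1, Cdc6, Cdt1, Gins3, Pola1, Pole2, Pold1, Pold3, Rfc3 and Lig1 carried an E2F word. Of these 14 genes 1 rose and 0 fell, with a median log2 change of 0.12. Of the 21 with a window and no E2F word 2 rose and 2 fell, with a median of 0.18. Sets defined by the presence or absence of the word thus had similar medians, and no test of them was made.

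Library by library, the replication genes did not shift as a block. Against the control mean of each gene, the median over the 43 was -0.07, 0.05 and 0.01 in controls 1, 2 and 4 and 0.19, 0.02 and 0.23 in dKO 1, 2 and 3. The value of dKO 2 thus lay below that of control 2. By role group, these medians were apart for helicase activation (-0.20 to 0.10 in controls, 0.23 to 0.39 in dKO). They were also apart for nucleotide supply (-0.09 to 0.07 and 0.17 to 0.37), and those of the other role groups overlapped. The summed value of the 43 genes was 2042, 2277 and 2113 in controls against 2418, 2256 and 2490 in dKO, again with dKO 2 below control 2. The called genes differed in this: Mcm7 and Tk1 were as high in dKO 2 as in the other dKO libraries. Tyms had its highest dKO value in dKO 2 (43.5, against 41.7 and 41.3 in dKO 1 and 3). Rrm2 (169.9, against 177 and 203) and Orc6 (31.7, against 42.2 and 41.2) had their lowest dKO value there.

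**Figure D3:**
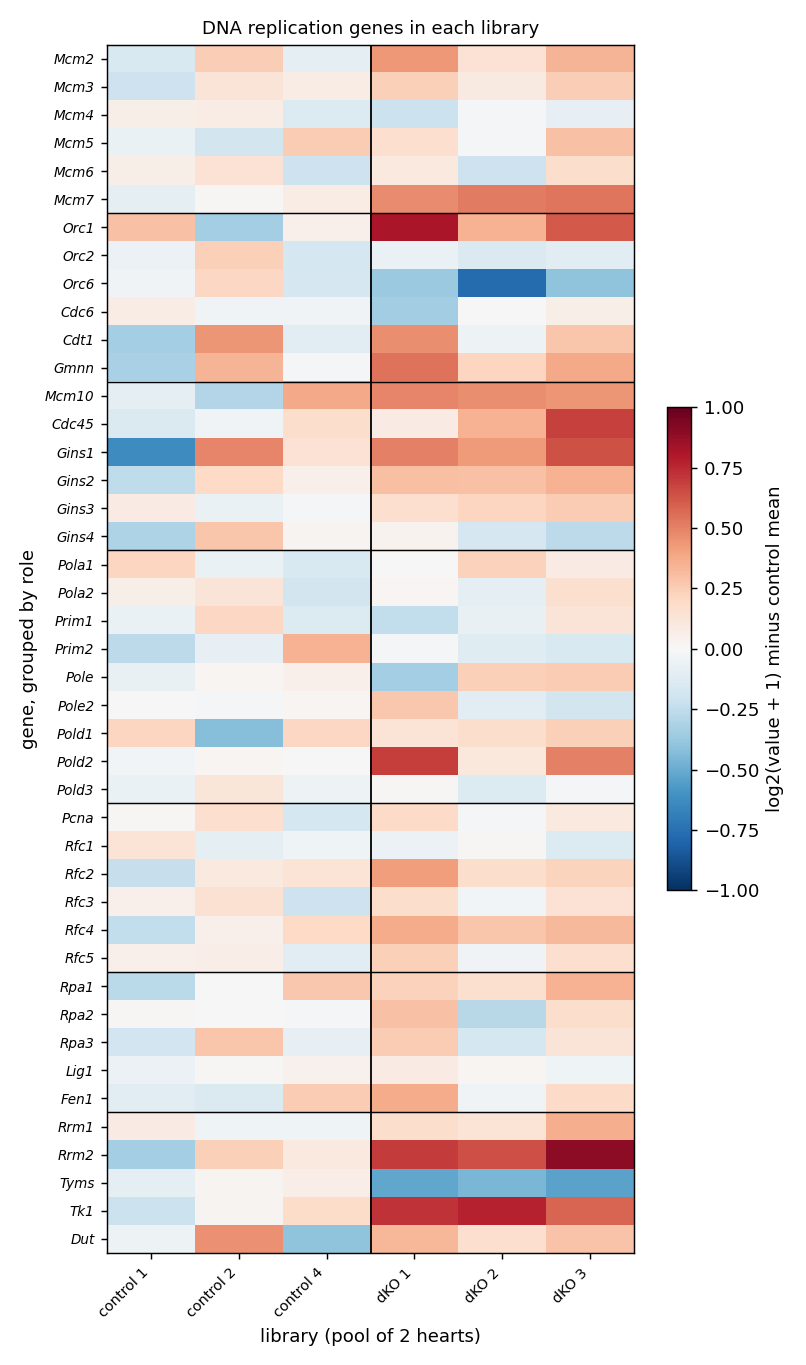
Log2(value + 1) of each of the 43 replication genes in each library minus the mean of the 3 controls, coloured from -1 (blue) to 1 (red), with lines between the role groups. Mcm7, Rrm2 and Tk1 are red and Orc6 and Tyms blue in all 3 dKO columns, while most other rows, such as Lig1 (log2 change 0.02) and Pcna (0.09), are pale.

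Another 64 genes that act beside these were read from the same fit: further complex subunits, firing kinases, fork protection factors, E2F and pocket proteins, chromatin assembly factors and nucleotide enzymes. All 64 were in the table. Of them 5 rose, 1 fell and 58 did not pass (9.38% called, beside 22.0% of all genes), with a median of 0.10. Ccna2, the S phase cyclin that partners CDK2, was 149, 172 and 166 in controls against 258, 255 and 229 in dKO. The groups were far apart (log2 change 0.61, SE 0.12, limma adjusted p = 0.00486), and it was the 1 called gene among the 11 firing factors and kinases. Of its exonic bases 12.5% lie in Exosc9. It passed in each of the 6 fits that left out 1 library (adjusted p 0.00940 to 0.0261).

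Of the 8 factors of replication-coupled chromatin 2 rose (25% called, near the 22.0% of all genes). Nasp, a histone H3-H4 chaperone, was 149, 183 and 143 in controls against 209, 214 and 245 in dKO (log2 change 0.49, limma adjusted p = 0.0235). Uhrf1, which brings the maintenance methyltransferase to new DNA, was 59.2, 59.5 and 55.1 in controls against 90.04, 67.7 and 81.6 in dKO (0.45, limma adjusted p = 0.0401), and 15.4% of its 50-base words occur in other transcripts. Neither pair of groups overlapped. Of the 11 other nucleotide enzymes 2 rose, Mthfd2 and Shmt2 (18.2% called, also near the share of all genes). Both encode mitochondrial enzymes of one-carbon metabolism, a supply line of purine and thymidylate synthesis. Mthfd2 was 9.54, 16.0 and 13.4 in controls against 22.0, 19.3 and 23.1 in dKO (0.71, limma adjusted p = 0.0376). Shmt2 was 32.8, 45.6 and 45.5 in controls against 80.2, 55.6 and 54.0 in dKO (0.60, limma adjusted p = 0.0482). The genes of the cytosolic enzymes, Mthfd1 (0.47, limma adjusted p = 0.0527) and Shmt1 (0.60, limma adjusted p = 0.0895), did not pass, though their groups did not overlap either and were higher in dKO. The Shmt2 call was lost in every fit that left out 1 library (adjusted p 0.0620 to 0.140). The Nasp call was lost without control 4, dKO 2 or dKO 3 (adjusted p up to 0.105). That of Uhrf1 was lost in every such fit except the one without dKO 2 (up to 0.129), and that of Mthfd2 in every such fit except the one without control 2 (up to 0.128).

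The E2F and pocket protein list had 1 called gene of 13 (7.69%, beside 22.0% of all genes). E2f5, a repressor-type E2F that works with the pocket proteins, fell from 22.8, 21.9 and 19.3 in controls to 14.8, 11.5 and 9.91 in dKO (log2 change -0.79, SE 0.20, limma adjusted p = 0.0173), and its adjusted p exceeded the threshold without control 2 (0.0546), dKO 2 (0.0583) or dKO 3 (0.0752). E2f1, E2f2 and E2f3, the activating members, did not pass, with log2 changes of 0.09, 0.03 and 0.15. None of the 9 further ORC, MCM and polymerase subunits and none of the 12 fork protection factors passed in limma or edgeR (0 and 0), with 1 gene of each list at an unadjusted p under 0.05. Their most abundant genes, Mcmbp (-0.10, limma adjusted p = 0.611), which binds MCM complexes, and Chtf8 (-0.02, limma adjusted p = 0.931), of an alternative clamp loader, had overlapping groups. The value of Chtf8 is uncertain, since 91.8% of its exonic bases also lie in another gene model of the same symbol or in Has3.

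Genes of mitosis, the phase that follows replication, were read beside them. Of the 12 mitotic genes 9 rose and 0 fell (75.0% called), with a median of 0.51. Of all genes 22.0% were called, 9.81% of them as higher and the rest as lower, as shares of all genes. Examples are Cenpf (log2 change 0.82, limma adjusted p = 0.00124), a kinetochore protein, Bub1 (0.74, 0.00389), a spindle checkpoint kinase, and the proliferation antigen Mki67 (0.49, 0.0158). Cdk1, Aurkb and Cdc20 did not pass (0.21, 0.09 and 0.52). Library medians against the control mean were -0.09, 0.05 and 0.05 in controls against 0.47, 0.51 and 0.52 in dKO. The mitosis medians were therefore apart between the genotypes in every library, while those of the whole replication list overlapped. The difference between the 2 lists was not tested, and the part of the marker shifts in either was not tested.

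**Figure D4:**
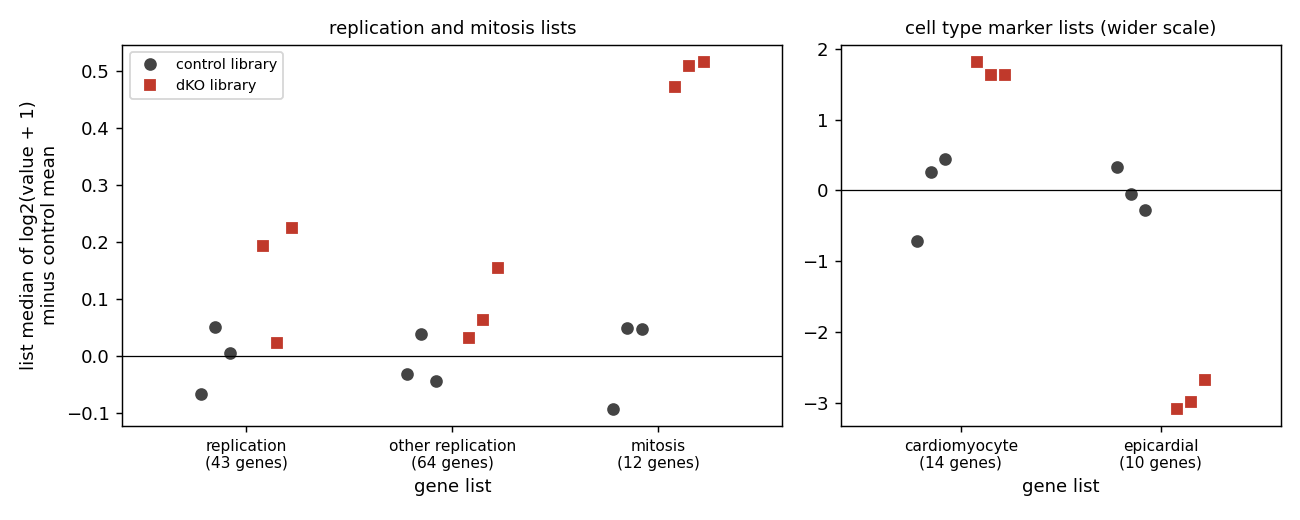
Median over each gene list of log2(value + 1) minus the control mean, one point per library (grey circles control, red squares dKO); the right panel has a wider scale. The replication genes sit at -0.07 to 0.05 in controls and 0.02 to 0.23 in dKO, the mitosis genes at -0.09 to 0.05 and 0.47 to 0.52.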

How the data were processed

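The submitters' processing notes name cutadapt, RSEM 1.3.1 and the GRCm38 build; annotation release, normalization and gene filter are not stated in the sources used here. The table the authors deposited holds a normalised signal per gene that is not logged. Whole reads with 0.5 added, per 1e+06 of a scaled library size, gave each of its 87294 values within 0.01 reads (100%), so they are called normalised read counts; 1 read was worth 0.0487 to 0.0740. Rows without a gene symbol (146) stayed in the fit.

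The filter, a value of 1 in at least 3 libraries, kept all 14549 genes. Groups were compared in R 4.3.3 with limma 3.58.1 on log2(value + 1), with moderated variances and a trend, no covariate, and Benjamini-Hochberg adjustment over all genes (threshold 0.05). The log2(value + 1) scale understates changes of low genes. Meis1 and Meis2 also had an exact two-sided permutation test. Alternatives were other pseudocounts, filters and scalings, no variance trend, edgeR 4.0.16 (quasi-likelihood, 2956 genes called) and DESeq2 1.42.0 on the recovered reads, a replicate block, libraries left out, and the cardiomyocyte list's mean log2 value as a covariate. In simulated data for 14286 genes, limma recovered 46 of 98 genes changed 2-fold and 82 of 95 changed 4-fold, and called 10 of 14093 unchanged genes. A far smaller share of genes was changed there than was called in the real data (22.0%). The adjusted threshold was therefore stricter in the simulation, and its recovered shares do not carry over to these libraries.

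Named with library values were the called genes, the genes of smallest p and highest mean value in each role group, called genes or the most abundant gene of the further lists, and the targeted genes; other replication genes given by library were picked once their values were known. The members and all lists were chosen with earlier results of these data known. Positions and overlaps came from GENCODE M21 (14530 of 14549 identifiers found) and promoters from RefSeq (GRCm38.p6). Overlap counts exonic bases in other genes on either strand, and shared words are 50-base stretches. The kit is not stated to keep strand.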

Additional observations from a re-analysis of the deposited data

How the results depend on the processing

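Rrm2 and Mcm7 kept their call in every fit except those with the replicate block or the cardiomyocyte covariate, and the median of the 43 replication genes stayed between 0.08 and 0.21 in all fits but those. With 1 library left out, 2167 to 2725 of all genes were called, 2 to 4 replication genes were higher and 0 to 2 lower, and of the 64 further genes 1 to 4 were higher and 0 to 1 lower, with a median of 0.062 to 0.19. The fits without dKO 2 and without dKO 3 each called 3 of the 43 genes. Group medians without 1 library ran from -0.0011 to 0.22 for origin licensing, 0.20 to 0.49 for nucleotide supply, -0.03 to 0.04 for polymerases and -0.011 to 0.24 for single-strand binding. Single genes that changed sign there were Mcm6 (-0.079 to 0.14), Gins4 (-0.29 to 0.0078), Pold3 (-0.080 to 0.012) and Chtf8 (-0.051 to 0.031), as did Meis1 (-0.32 to 0.045), none of them called.

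Besides the block and the covariate, 3 settings with all libraries lost the call of Orc6: 1 replication gene was lower, not 2, with no variance trend (1), quantile normalization (1) and edgeR (1). With no variance trend 1 of the further genes was higher, and with control 1 and dKO 1 both left out 2 were lower, Tk1 had a limma adjusted p of 0.0554 and Meis1 a change of 0.13. Chtf8 changed by 0.012 under quantile normalization, which moved the median of all genes to 0.04.

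The replicate block used the numbers of the titles, of which only 1 and 2 occur in both groups, and left few degrees of freedom. With it 1360 genes were called, and 0 replication genes and 0 further genes passed in either direction. The median of the further genes was then 0.016 and that of nucleotide supply 0.13, and Mcm6 changed by -0.16, Pcna by -0.0015 and Chtf8 by 0.019. The deviations of same-numbered libraries correlated at -0.18 (number 1) and -0.20 (number 2). Deviations within groups of so few libraries depend on one another, so these values cannot decide whether same-numbered libraries were paired. Whether they share more than a number is not known.

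With the cardiomyocyte value as a covariate, 229 genes were called, and 0 replication genes and 0 further genes in either direction. The median of the 43 was -0.034, and group medians were 0.040 (MCM2-7), -0.30 (licensing), -0.042 (activation), 0.11 (polymerases), -0.25 (single-strand binding) and 0.15 (nucleotide supply). Changes of opposite sign were Gmnn -0.39, Rfc4 -0.29, Rpa1 -0.40, Mthfd2 -0.13, Shmt2 -0.32 and Meis1 1.01, and Meis2 was -0.55 (limma adjusted p = 0.661). The cause of these shifts was not tested. Depth limits the lowest genes most: Orc1 rested on 53 to 155 reads per library.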
